A study of Mus musculus with 4 samples.

Results

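Transcripts of 10 chaperone genes were followed in mouse kidney ureteric buds exposed to angiotensin II (AngII). They comprise the small heat shock proteins Hspb1, Hspb8 and Cryab, the co-chaperones Dnajb1, Hsph1 and Bag3, both cytosolic HSP90 genes, Hsp90aa1 and Hsp90ab1, and the mitochondrial chaperonin genes Hspd1 and Hspe1. They were chosen by name, and a probe was taken where its array accession maps to one of these symbols, which gave 14 of the 41174 probes on the array, for 10 of the 17305 genes that could be named. The array compared intact buds given AngII at 1e-05 M for 6 h with intact buds given media for 6 h. Both groups lay in a matrix gel. Their medium held 10% fetal serum and the growth factors GDNF and HGF, each at 100 ng/ml, so those signals were present with and without AngII. The labels give no strain, age or number of pooled buds. They number 2 AngII and 2 media RNAs as biological replicates, and each numbered pair was read on 2 two-colour arrays with the dyes swapped, 4 arrays in all. Each array gives a log2 ratio of AngII over media, turned to that direction where AngII was in Cy3.

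Chaperones hold unfolded proteins in solution or help them fold. Small heat shock proteins bind unfolding proteins without using ATP, HSP70 then refolds such clients with the help of J proteins and nucleotide exchange factors, and HSP90 matures kinases and steroid receptors. Many of these genes are driven by heat shock factor 1 (HSF1), which binds repeats of the unit GAA in alternating orientation. In kidney epithelia they are best known as genes induced by heat, ischemia and other protein damage.

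All 14 probes were well above background in both channels of all 4 arrays, no spot was saturated, and no spot was left out as an outlier. On each array between 19716 and 21340 probes were well above background in the AngII channel, and between 19028 and 21922 in the media channel. Across 19373 probes with a ratio on every array, the numbered replicates had a half-difference with an SD of 0.0381 (log2), where array noise alone gave 0.0376. Between the replicates limma called 0 probes after adjustment, and 967 had an unadjusted p below 0.05, where chance gives 969. The replicates were therefore counted as 1 independent pair of RNAs. The limma p-values below measure the spread between 2 averages, each over a dye swap, and not between animals or cultures. In the fit this spread is largely shared across probes: the member probes all had standard errors between 0.0352 and 0.0361. The difference between the dye orientations cancels in those averages and is not part of that spread. Dye mattered more than the replicate number: the arrays of a swap correlated at 0.656 and 0.666 across probes. Arrays of the same orientation correlated at 0.960 and 0.971. For that reason a probe is said here to have risen or fallen only where limma's adjusted p was under 0.05 and all 4 arrays had the same sign. Of the ureteric epithelium markers Ret was not well above background and the other 19 of 20 were tested. Of these 6 rose, 6 fell and 7 did neither, with log2 ratios between -1.13 (Wnt7b) and 1.53 (Wnt9b). Their summed intensity was 223500 to 248100 in AngII RNA, against 243100 to 316500 in media RNA. In bulk tissue RNA, fewer cells of a type and less RNA per cell cannot be told apart.

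The promoter stretches that hold a pair or a longer run of GAA units in alternating orientation are shown first. Repeats of this kind are what HSF1 binds. The stretches of Hspb1, Hspb8 and Bag3 hold pairs only, and those of Hsph1 and Hspe1 a longer run. RefSeq promoters (GRCm38.p6, from 250 bases before to 50 after each start) were at hand for 7 of the 10 members: Hspb1, Hspb8, Dnajb1, Hsph1, Bag3, Hspd1 and Hspe1. Each line gives 30 bases, with the GAA and TTC units of the match in capitals. They lie at chr5:135887801-135887830 on the plus strand for Hspb1, chr5:116422844-116422873 on the minus strand for Hspb8, chr5:149636287-149636316 on the minus strand for Hsph1, chr7:128523603-128523632 on the plus strand for Bag3 and chr1:55088053-55088082 on the plus strand for Hspe1.
Hspb1: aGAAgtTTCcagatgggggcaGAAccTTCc
Hspb8: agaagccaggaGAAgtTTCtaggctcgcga
Hsph1: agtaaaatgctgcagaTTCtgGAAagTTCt
Bag3: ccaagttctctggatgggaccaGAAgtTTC
Hspe1: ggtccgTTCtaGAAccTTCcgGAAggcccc

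A run of 3 units, searched as GAANNTTCNNGAA or TTCNNGAANNTTC, which are each other's reverse complement, was found for Hsph1, Hspd1 and Hspe1, 3 of the 7 members. It is held by 0.663% of 26994 genes with a RefSeq promoter. A pair of units, GAANNTTC or TTCNNGAA, each of which reads the same on both strands and lies within every longer run, was found for 6 of the 7, against 17.0% of all genes. In Hspe1 the run begins 89 bases before the start, and the Hspd1 match is the same DNA read from the other strand, since these neighbouring genes face away from each other. In Hspb1 the pairs begin 117 and 97 bases before the start. In Hspb8, Hsph1 and Bag3 the matches shown begin 2, 36 and 42 bases after the first base of the transcript, counted for Hsph1 from the first of its annotated starts. Hsph1 also has a pair that begins 33 bases before that start. From its other start the same matches lie 15 bases after and 54 before. The Hspd1 match is in the window of one annotated start, and the window of the other holds none. For Dnajb1, whose gene is a textbook heat shock gene, these letters were not in either window. A match describes letters and no binding was measured.

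**Figure D1:**
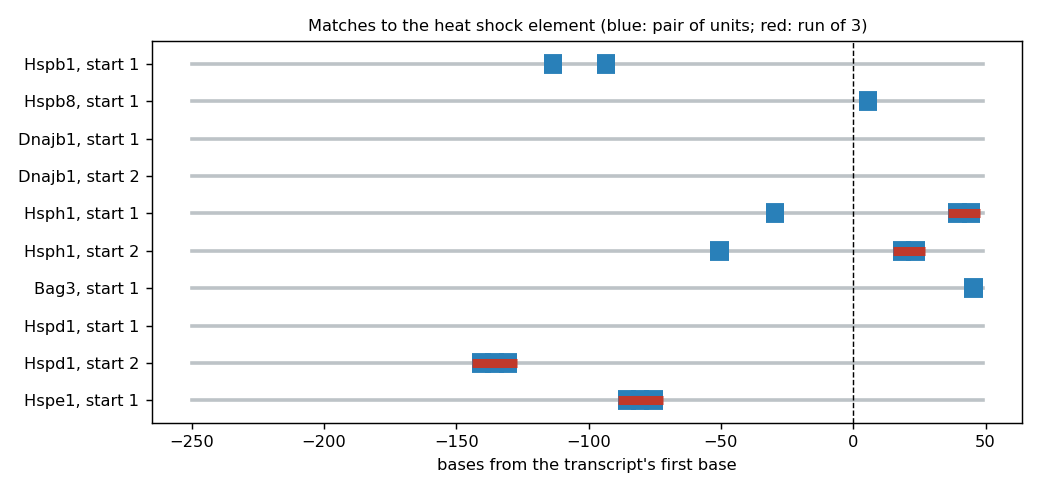
Positions of GAA units in alternating orientation in the RefSeq promoters of 7 members, blue for a pair and red for a run of 3. The x axis gives the distance from the transcript's first base, with a line for each annotated start. Hspd1 and Hspe1 carry their run upstream of a start and Hsph1 downstream of it.

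By size, the members that changed most were Hspb8, which was 0.405-fold of media under AngII, Hsp90ab1 at 0.607-fold and Cryab at 2.03-fold, each at its brightest probe. At the brightest probe of each gene, 5 of the 10 members fell (Hspb8, Hsp90ab1, Hsp90aa1, Hspb1 and Hspd1), 1 rose (Cryab) and 4 did neither (Dnajb1, Hsph1, Bag3 and Hspe1). Over all 11450 named genes tested in the same way, 27.6% fell and 32.5% rose. The median log2 ratio of the members was -0.12, against 0.01 over those genes. Among the members that fell, Hspd1 had only -0.08, and its other probe had 0.27 with a sign that turned with the dye. Dnajb1 did neither at its brightest probe, but its other probe fell, at -0.64. At least 1.5-fold lower were 2 members and at least 1.5-fold higher was 1, where the shares of all genes were 5.97% and 6.32%. Counted by probe, 7 of 14 fell, 2 rose and 5 did neither, against 28.1% and 28.6% of the 19393 probes tested. The adjusted p alone was passed by 9 member probes that were lower and 4 that were higher. It sets little apart in these data, since 76.2% of all probes passed it, 38.6% lower and 37.6% higher. At least 1.5-fold lower were 4 member probes and higher 1, against 5.40% and 4.84% of all probes, 10.2% in either direction. The authors' deposited table calls 6 of these 14 spots lower and 3 higher, and gives 5 no call. Among all 41174 probes, dim ones included, it has 7944 lower and 7763 higher.

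**Figure D2:**
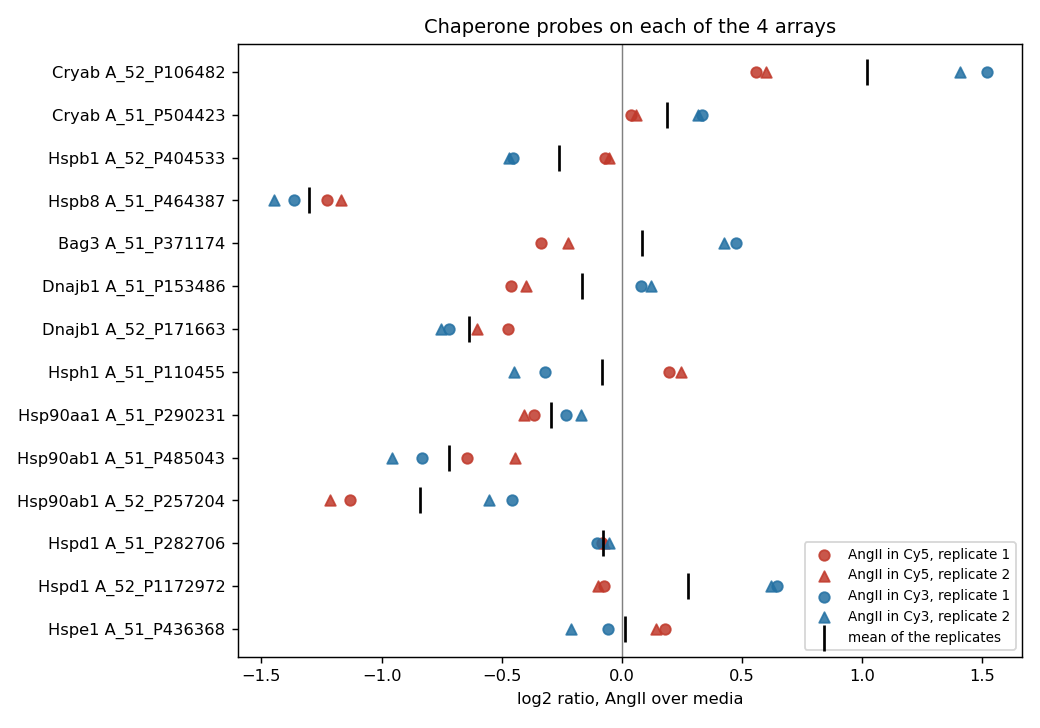
Log2 ratio of AngII over media for each of the 14 member probes on each of the 4 arrays, red for AngII in Cy5 and blue for AngII in Cy3, circles and triangles for replicates 1 and 2, with a black bar at the mean. Hspb8, Dnajb1 (A_52_P171663) and both Hsp90ab1 probes lie left of 0 on every array and both Cryab probes right of it, while 5 probes have one sign in each dye orientation.

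Hspb8, also called HSP22, is a small heat shock protein that works in a complex with BAG3 to hand damaged proteins to autophagy. Its normalised log2 intensity was 8.87, 8.61, 8.47 and 8.60 in AngII RNA on the 4 arrays, against 10.10, 9.78, 9.83 and 10.04 in media RNA. Every AngII value lay below every media value, by more than the spread within either group. Its log2 ratio was -1.23 and -1.17 with AngII in Cy5 and -1.37 and -1.45 with AngII in Cy3. The mean was -1.30 with a limma standard error of 0.04 (adjusted p = 7.26e-30), which is rank 63 from the lowest of 19393 probes. It was the largest fall among the members.

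Bag3, the partner of Hspb8 and a nucleotide exchange factor of HSP70, had no sign common to all 4 arrays. Its log2 ratio was -0.34 and -0.22 with AngII in Cy5 and 0.47 and 0.43 with AngII in Cy3. The mean of 0.08 passed limma (adjusted p = 0.0296), but the sign depended on the dye. Its levels were 9.11, 9.36, 9.98 and 9.81 in AngII RNA, against 9.45, 9.59, 9.50 and 9.39 in media RNA, and the groups overlapped. No common direction of Bag3 can be read from these arrays.

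Hspb1, known as HSP25 in the mouse, protects actin filaments and is a major small heat shock protein of epithelia. Its levels were 13.68, 13.64, 13.52 and 13.43 in AngII RNA, against 13.75, 13.69, 13.97 and 13.90 in media RNA. The groups did not overlap, but the highest AngII value and the lowest media value were close. The log2 ratio was -0.07 and -0.05 with AngII in Cy5 and -0.45 and -0.47 with AngII in Cy3, a mean of -0.26 (limma adjusted p = 1.48e-08). Hspb1 thus fell to 0.834-fold of media, with most of the difference on the arrays that held AngII in Cy3. With the replicate block, a fit whose error includes the dye difference, its adjusted p was 0.139.

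Cryab, the alpha-B crystallin of lens and muscle and also a chaperone of collecting duct cells in the renal medulla, was the only member that rose. At its brighter probe, A_52_P106482, the levels were 8.85, 8.88, 9.42 and 9.35 in AngII RNA, against 8.29, 8.28, 7.90 and 7.94 in media RNA. The groups did not overlap, and the gap was wider on the arrays with AngII in Cy3. The log2 ratio was 0.56 and 0.60 with AngII in Cy5 and 1.52 and 1.41 with AngII in Cy3, a mean of 1.02 (limma adjusted p = 3.02e-26). The dimmer probe, A_51_P504423, had 0.04, 0.06, 0.33 and 0.32, a mean of 0.19, which is 1.78-fold below the brighter probe. Its mean log2 intensity was 6.51, the lowest of the member probes, and its levels overlapped between AngII and media. Both probes had a positive ratio on all 4 arrays, but the dimmer probe did not pass with the replicate block (adjusted p = 0.172) or with AngII in Cy5 alone (adjusted p = 0.447). The rise of Cryab therefore rests on the brighter probe. Hspb2, the small heat shock gene next to Cryab on chromosome 9, had 0.03 and -0.04 with AngII in Cy5 and 0.68 and 0.69 with AngII in Cy3, with a mean log2 intensity of 6.51.

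**Figure D3:**
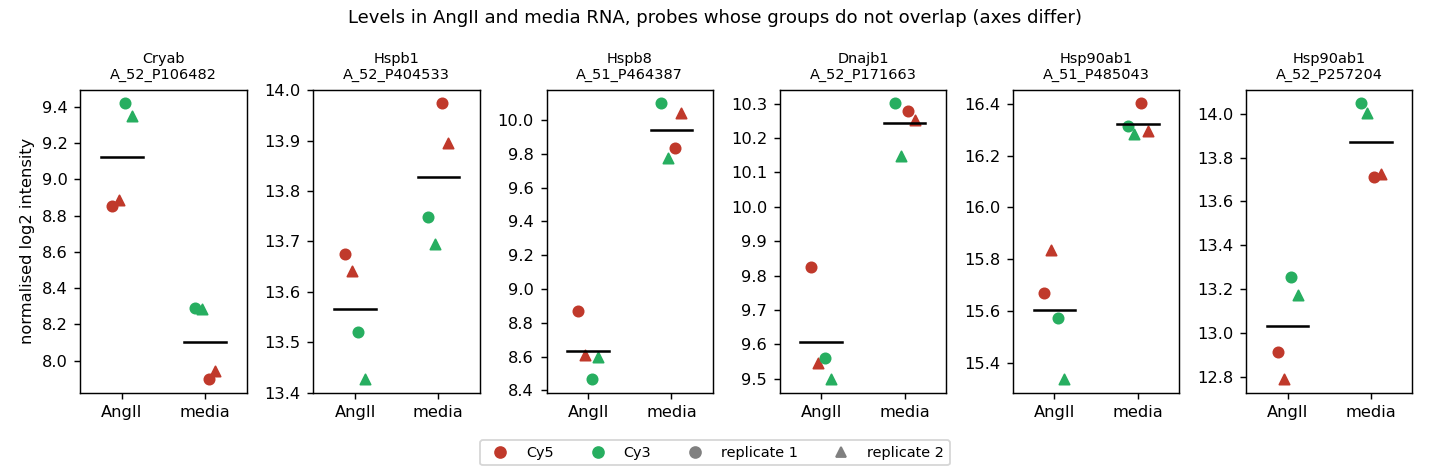
Normalised log2 intensity in AngII (left) and media (right) RNA for the 6 member probes whose groups did not overlap, red for Cy5, green for Cy3, circles and triangles for replicates 1 and 2, with bars at the means and a y axis of its own for each probe. Cryab is higher in AngII RNA and the other 5 probes are lower, and Hspb1 has the smallest gap.

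In all, 6 of the 14 member probes had AngII and media levels that did not overlap, 5 of them lower and 1 higher under AngII. Over all probes tested that share was 32.2%.

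Dnajb1, or HSP40, is a J protein that brings clients to HSP70 and stimulates its ATPase. Its probes differed. At A_52_P171663 the levels were 9.83, 9.55, 9.56 and 9.50 in AngII RNA, against 10.30, 10.15, 10.28 and 10.25 in media RNA, with no overlap. That probe fell with log2 ratios of -0.48, -0.60, -0.72 and -0.75 and a mean of -0.64 (limma adjusted p = 2.67e-19). The brighter probe, A_51_P153486, had -0.46 and -0.40 with AngII in Cy5, and 0.08 and 0.12 with AngII in Cy3, a mean of -0.17. The fall of Dnajb1 therefore rests on 1 of 2 probes, which differ 1.39-fold. The authors' deposited table gives -0.67 with a call of lower for the first spot, and -0.14 with no call for the second.

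Hsph1, or HSP105, belongs to the HSP110 family and resets HSP70 by exchanging its nucleotide. Its log2 ratio was 0.19 and 0.25 with AngII in Cy5 and -0.32 and -0.45 with AngII in Cy3, and the mean was -0.08 (limma adjusted p = 0.0332). The levels were 12.87, 13.10, 12.84 and 12.67 in AngII RNA, against 12.67, 12.86, 13.16 and 13.12 in media RNA. The groups overlapped and the sign turned with the dye, as for Bag3 but in the other sense.

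Hsp90ab1, the constitutive cytosolic HSP90, fell at both of its probes. At A_51_P485043 the levels were 15.67, 15.84, 15.57 and 15.34 in AngII RNA, against 16.32, 16.28, 16.40 and 16.29 in media RNA. At A_52_P257204 they were 12.91, 12.79, 13.26 and 13.17 in AngII RNA, against 14.05, 14.00, 13.71 and 13.73 in media RNA. Neither pair of groups overlapped. The mean log2 ratios were -0.72 (limma adjusted p = 3.54e-21) and -0.84 (3.82e-23), with array values between -0.96 and -0.45 and between -1.21 and -0.46. The dye acted on these probes in opposite senses, with the deeper ratios on the AngII in Cy3 arrays at the first and on the AngII in Cy5 arrays at the second, and the means lay only 1.09-fold apart.

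Hsp90aa1, the stress-inducible cytosolic HSP90, fell less. Its log2 ratios were -0.37, -0.41, -0.23 and -0.17, a mean of -0.29 (limma adjusted p = 9.61e-10). The levels were 15.09, 15.32, 15.21 and 15.10 in AngII RNA, against 15.45, 15.72, 15.44 and 15.27 in media RNA, and the groups overlapped although every array had a negative ratio. The HSP90 genes are close paralogs, so a probe may read some of the other's transcript. Whether the HSP90 ratios differ from each other was not tested.

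Hspd1 and Hspe1 encode HSP60 and HSP10, the barrel and the lid of the mitochondrial chaperonin. Hspd1 had log2 ratios of -0.08, -0.08, -0.10 and -0.05 at its brighter probe, A_51_P282706, a mean of -0.08 (limma adjusted p = 0.0432). This was the steadiest ratio of any member over the arrays, with an SD of 0.02, and it was small. The authors' deposited table gives 0.02 for the same spot with no call, and the median of all probes was -0.01. With the replicate block its adjusted p was 0.370. The other Hspd1 probe, A_52_P1172972, had -0.07 and -0.10 with AngII in Cy5 and 0.65 and 0.62 with AngII in Cy3, a mean of 0.27. Hspe1 had 0.18, 0.14, -0.06 and -0.21, a mean of 0.01 that did not pass (limma adjusted p = 0.766). RefSeq lists pseudogenes named after Hspd1 and Hspe1, so their probes may read more than these transcripts.

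The same sign problem by dye touched 5 of the 14 member probes (Dnajb1 A_51_P153486, Hsph1, Bag3, Hspd1 A_52_P1172972 and Hspe1), whereas 21.8% of all probes tested had opposite signs in the dye orientations. The median absolute difference between orientations was 0.37 for the member probes and 0.20 for all probes. The remaining 9 member probes had the same sign on all 4 arrays, against 58.2% of all probes.

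Other chaperone genes, grouped in lists written with earlier results of these data known, were counted at the brightest tested probe of each gene. Among HSP90 co-chaperones 4 of 18 fell, 3 rose and 11 did neither, with a median of -0.01. Other probes of these genes can differ. Cdc37 had -0.07 at its brightest probe and -0.69 at the other, and St13 had 0.02 and 0.18. Fkbp4, an immunophilin of steroid receptor complexes, fell by 0.78 on the log2 scale, and Stip1, the adaptor HOP that joins HSP70 to HSP90, by 0.46. Ppp5c, a phosphatase bound to HSP90, fell by 0.51, and Chordc1 rose by 0.36. Of the other small heat shock genes only Hspb11, Hspb2 and Cryaa were tested, since Hspb3, Hspb6 and Hspb7 were not well above background. Hspb11, which despite its name is a part of the intraflagellar transport machinery, rose by 0.68, and Cryaa, dim at a mean log2 intensity of 6.84, by 0.26.

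In the HSP70 and HSP110 list 4 of 13 fell and 4 rose, with a median of 0.00. Hspa1b and Hspa1a, the inducible HSP70 genes, whose sequences are almost the same, had the deepest ratios at -2.44 and -2.30, and Hspa8, the constitutive form, had -0.69, with single arrays between -1.43 and -0.04. Of 23 other J proteins 11 rose and 3 fell, with a median of 0.09. Dnajc10 and Dnajc3, which serve the endoplasmic reticulum (ER), rose by 0.73 and 0.49, and Dnajc15 and Dnajc19 of mitochondria by 0.62 and 0.47. Among BAG proteins and exchange factors 3 of 9 rose and 2 fell, led by Sil1, the exchange factor of the ER, at 0.78.

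Most ER chaperones rose. Of 14 tested 12 rose, none fell and 2 did neither, with a median of 0.49, against the 32.5% of all genes that rose. The lists share genes, so they are not separate sets. Hsp90b1, Hspa5, Dnajc10 and Dnajc3 also belong to the HSP90, HSP70 or J protein lists, and Trap1 to the HSP90 and mitochondrial lists. Hsp90b1, the ER paralog of HSP90 also known as GRP94, rose by 0.66, Manf by 0.79, Creld2 by 0.63 and Hspa5, the ER form of HSP70, by 0.49 on the 3 arrays that gave it a ratio. Trap1, the mitochondrial HSP90, fell by 0.19. The HSP90 family thus held genes that fell in the cytosol and in mitochondria and 1 gene that rose in the ER, and the difference between these genes was not tested. Of 12 genes of mitochondrial protein care 5 rose and 3 fell, with a median of 0.19, led by the proteases Spg7 at -0.46 and Yme1l1 at 0.39. Of 13 genes of the cytosolic chaperonin TRiC and prefoldin 3 rose and 3 fell, with Cct8 at 0.53 and Pfdn2 at -0.50.

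**Figure D4:**
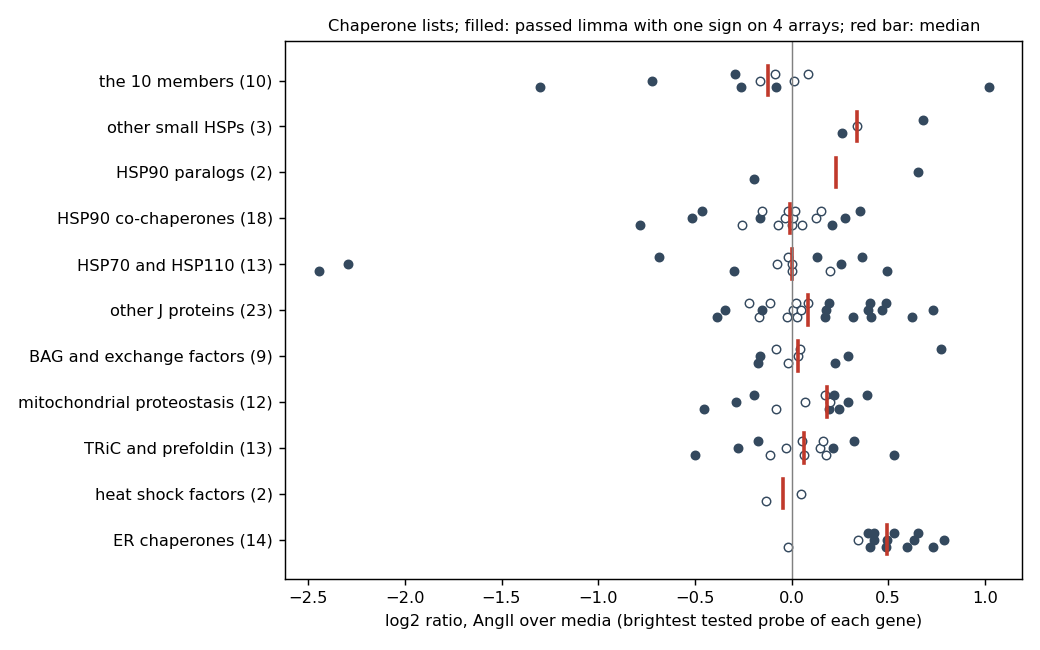
Log2 ratio of AngII over media at the brightest tested probe of each gene in 11 chaperone lists, number tested in brackets, filled where limma passed with the same sign on every array that gave a ratio, with a red bar at each median. The members run from -1.30 to 1.02, and the ER chaperones lie to the right of 0 except Hyou1 at -0.02. Some genes stand in several lists.

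Of the heat shock factors Hsf1 had 0.04 and 0.06 with AngII in Cy5 and -0.31 and -0.31 with AngII in Cy3, a mean of -0.13. At its other probe, A_51_P102943, the mean was -0.23 (limma adjusted p = 2.05e-07). Hsf2, Hsf4 and Hsf5 were not well above background and were not tested. Hsbp1, which binds HSF1, had -0.29 and -0.31 with AngII in Cy5 and 0.41 and 0.37 with AngII in Cy3. Its mean of 0.05 did not pass (limma adjusted p = 0.223), and its sign turned with the dye. HSF1 is controlled mainly through its protein, which these arrays do not measure.

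Markers of other cell types were read beside the members, because several small heat shock genes are abundant in muscle. Of 11 smooth muscle markers 4 rose and 4 fell, with Acta2 at 1.69 and Cnn1 at -0.89, and their summed intensity ran from 67320 to 76530 in AngII RNA and from 65730 to 76270 in media RNA. Of 9 erythroid markers 8 rose and none fell, with a summed intensity of 33150 to 41040 in AngII RNA, against 6585 to 7870 in media RNA. Klf1 was not well above background. Of 11 stromal markers 2 rose and none fell, with 37420 to 47560 in AngII RNA and 38290 to 46020 in media RNA. The endothelial (2 rose and 4 fell of 9), leukocyte (3 and 4 of 9), neural (none and 3 of 5) and nephron progenitor (4 and 4 of 10) lists had medians of -0.10, -0.13, -0.19 and -0.25. Their part in the chaperone ratios was not tested.

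In each alternative with a test that was run for them, 13 for a gene's brightest probe and 11 for a dimmer one, 6 of the 14 member probes kept their direction and their call: Hspb8, Cryab at its brighter probe, Dnajb1 at A_52_P171663, Hsp90aa1 and both Hsp90ab1 probes. The share of all tested probes that did so was not computed, so 6 of 14 cannot be called many or few. Hspb8 ranged from -1.50 to -1.20, the brighter Cryab probe from 0.58 to 1.46 and Hsp90aa1 from -0.39 to -0.20. The Hsp90ab1 probes ranged from -0.89 to -0.55 and from -1.17 to -0.51, and Dnajb1 from -0.74 to -0.54.

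**Figure D5:**
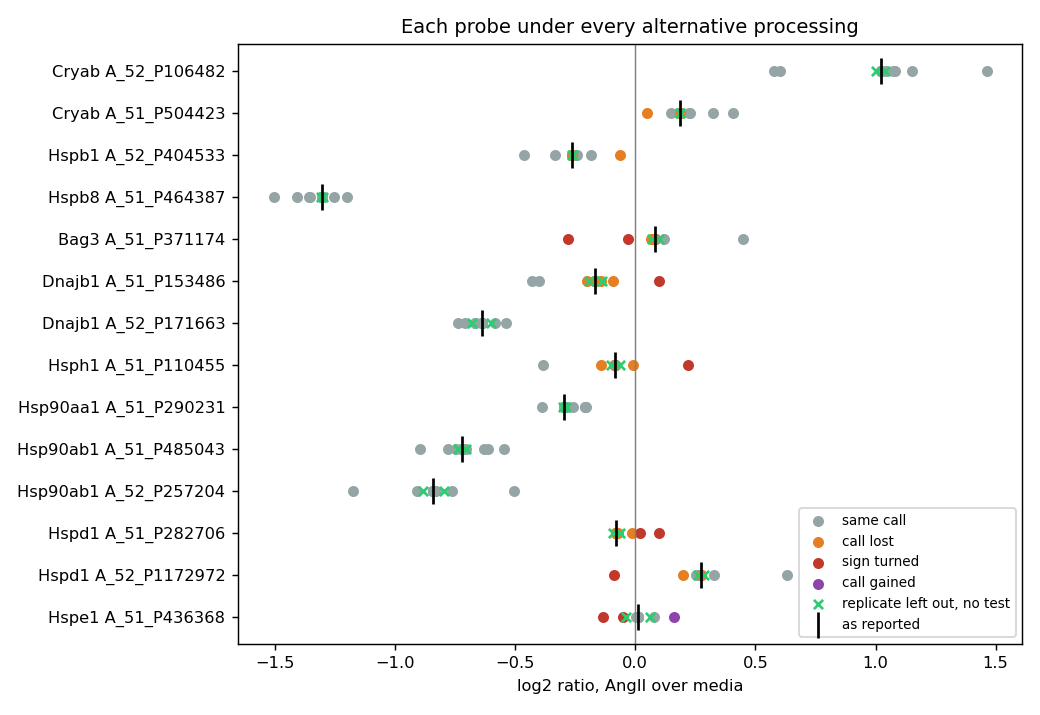
Log2 ratio of each member probe under every alternative, with a black bar at the reported value, grey where the call was the same, orange where it was lost, red where the sign turned, purple where a call was gained and a green cross where a replicate was left out, which allows no test. The 6 probes named above have no orange, red or purple point.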

How the data were processed

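RNA of intact ureteric buds with AngII or media was read on 4 two-colour Agilent arrays on 1 slide, from 300 ng of total RNA, per the labels' protocols. Feature Extraction 10.5.1.1 made the deposited intensity columns, per the file headers: the median pixel signal of each spot and its local background, and a processed signal. The scanner tables that the authors deposited also hold a log10 ratio of red over green, not used here, and flags as a score of 0 or 1. The authors' deposited table gives a log2 ratio, its adjusted p-value, an average log2 intensity and a call, a score of -1, 0 or 1. The submitters' processing notes name limma with no version; how that table was normalised and fitted is not given in the sources used here. Across tested probes its ratios correlated at 0.995 with those computed here.

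In R 4.3.3 with limma 3.58.1, median signals were corrected by normexp (offset 50) and loess within arrays with control spots at weight 0, outlier spots were left out, and spots of a probe were averaged. Ratios were turned to AngII over media, the swapped arrays of a replicate number averaged, and the 2 ratios tested against 0 (lmFit, eBayes), with a threshold of 0.05 on the p adjusted by Benjamini-Hochberg over 19393 probes. These were well above background in the AngII or the media channel of all 4 arrays. Levels per channel are log2 intensities after loess and Aquantile. RefSeq (GRCm38.p6) gave symbols for 25097 probes by their unversioned accession. Because the array was annotated on mm9, only promoters carry coordinates. The pairing comes from the labels, which number the RNAs hybridised together. The fit was tested on simulated data, with an outcome that is not given here, and no result rests on that test. Named genes are the members, and up to 4 genes with the largest absolute ratio in each list. Hyou1, Cdc37, St13 and genes named as not tested were added after their values were seen. Members and lists were chosen with earlier results of these data known, and the rule that all arrays share a sign was added after seeing them.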

Additional observations from a re-analysis of the deposited data

Results flagged for a closer look

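For 5 member probes both arrays with AngII in Cy5 had one sign and both arrays with AngII in Cy3 the other. The log2 ratio with AngII in Cy5 minus that with AngII in Cy3 was -0.53 for Dnajb1 at A_51_P153486, 0.60 for Hsph1, -0.73 for Bag3, -0.72 for Hspd1 at A_52_P1172972 and 0.30 for Hspe1. The difference between the orientations was not tested for these probes. A fixed dye effect cancels in the mean of the swap, and the share of all probes with such opposite signs was 21.8%.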

How the results depend on the processing

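Over the alternatives with a test, 13 for a gene's brightest probe and 11 for a dimmer one, 6 of 14 member probes kept direction and call. No spot was saturated, so leaving out saturated spots changed nothing, and with the brightest probe per gene or the stricter filter no member call changed. By limma's adjusted p alone, at each gene's brightest probe, the reported fit had 7 members lower and 2 higher. Over all probes it had 7484 lower and 7300 higher. The counts past the threshold below compare with these. With the replicate block, 2863 probes were lower and 2896 higher past the threshold, with 3 members lower and 1 higher; Hspb1 (adjusted p = 0.139), Cryab at its dimmer probe (0.172), Dnajb1 at its brighter probe (0.408), Hsph1 (0.719), Bag3 (0.756) and both Hspd1 probes (0.370 and 0.298) lost their call. This block leaves the dye difference in the error. With processed signals 2772 probes were at least 1.5-fold lower and 1923 higher, against 1048 and 938. Past the threshold 7250 of all probes were then lower and 5169 higher, with 4 members lower and 1 higher. The members' median was -0.17, where that over all named genes was -0.0388. Median centring left 4 members lower (median -0.0530, and 0.0347 over all named genes), with 6600 of all probes lower and 7189 higher. The calls in the authors' deposited table gave 4 members lower and 1 higher, with 7944 of all probes lower and 7763 higher. No background correction and no filter each left 1 member higher, against 2 in the reported fit, with 7380 and 7648 of all probes higher. With AngII in Cy5 alone 1 member was at least 1.5-fold lower and 0 higher, where 1070 and 1223 of all probes were. The members' median was -0.18 there, and -0.17 with AngII in Cy3 alone and when the probes of each gene were averaged. Leaving out a replicate leaves 2 arrays and no test; it gave medians from -0.14 to -0.12, and Hspe1 was -0.0365 without replicate 1.

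Signs turned for Dnajb1 at its brighter probe (0.10) and Hspe1 (-0.14) with AngII in Cy3 alone, and for Hsph1 (0.22), Bag3 (-0.28) and Hspd1 at A_52_P1172972 (-0.0863) with AngII in Cy5 alone. They turned for Bag3 (-0.0318) and Hspe1 (-0.0526) with processed signals. Both lay above the median of all probes in that setting (-0.0745). Bag3 lay above the median over all named genes (-0.0388) and Hspe1 below it. Signs also turned for Hspd1 at A_51_P282706 with the mean of its probes (0.10) and in the authors' deposited table (0.0210). List medians turned for HSP90 co-chaperones (0.0509 by median centring, 0.0560 with AngII in Cy3 alone, 0.0295 in the authors' deposited table), heat shock factors (0.0259 by median centring, 0.00556 with no filter, 0.0397 with AngII in Cy3 alone) and neural markers (0.0575 with no filter, 0.0610 in the authors' deposited table). With AngII in Cy5 alone they turned for TRiC and prefoldin (-0.0353), stromal (-0.0539) and nephron progenitor markers (0.118). The median of HSP70 and HSP110, 0.00192, was below 0 with processed signals (-0.0532), no background correction (-0.0225), AngII in Cy5 alone (-0.0467), in the authors' deposited table (-0.0255) and without replicate 2 (-0.00194). That of BAG and exchange factors, 0.0348, was below 0 with processed signals (-0.0380), averaged probes (-0.0186), AngII in Cy3 alone (-0.00767) and without replicate 2 (-0.0243). The cause was not tested.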
